A study of Mus musculus with 16 samples.

Results

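The comparison described here asks whether a diet with CCH, coral calcium hydride, shifted hippocampal gene expression by unequal amounts in 2 mouse strains. The quantity is the difference between SAM/P-8 mice on CCH and SAM/P-8 mice on CE, minus the same difference in SAM/R-1 mice, and it is called the interaction below. It drew on 16 of the 16 arrays of the series, 4 in each of the groups SAM/P-8 + CCH, SAM/P-8 + CE, SAM/R-1 + CCH and SAM/R-1 + CE. All mice were males of the senescence-accelerated mouse family, which per the labels was selected from AKR/J stock, and all RNA came from hippocampus. From 8 weeks of age they received the rodent chow CE-2 for 8 weeks, either plain (CE) or with 0.1% CCH mixed in (CCH). The SAM/R-1 groups were thus the reference strain and the CE groups the reference diet, and the labels name no transgene or deletion in any group. Nothing in the labels ties an array to an individual mouse, and p-values here measure only sample-to-sample spread, which may be technical. The 4 groups occupied 4 different slides, 1 slide per group, and slide and group cannot be told apart.

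SAM/P-8 is known as a line with early decline of learning and memory, and SAM/R-1 as its line with more regular ageing. The hippocampus is the brain region that forms new episodic and spatial memories, with granule cells in the dentate gyrus and pyramidal cells in the CA fields. An interaction of strain and diet is present where a gene follows the diet in one strain and stays still, or moves the other way, in the other strain. A gene that follows the diet equally in both strains has an interaction of 0.

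Values are log2 signals of a probe minus the 75th percentile of its array, so differences can be read as log2 fold changes. Levels of different probes are ranked only as brightness and are not compared as amounts of RNA. The analysis kept 26416 of 41174 probes, which were read well above background on each of the 16 arrays and stood for 12754 named genes. Differences are given ± SE from limma with 4 arrays per group, and adjusted p is the Benjamini-Hochberg value across the 26416 probes, with a threshold of 0.05. An array had 28920 to 33333 of its 43379 gene spots well above background, arrays of a group correlated with each other at 0.988 to 0.998, and precision is limited by there being 4 arrays per group. Of 23 markers of the dentate gyrus and CA fields with a probe, 22 were kept. Wfs1 and Neurod6 of the pyramidal cells, given as examples, lay at percentiles 96.0 and 86.1 of probe brightness. Of 16 neocortex and retrosplenial cortex markers with a probe, 16 were kept too, so being kept does not tell these tissues apart. In RNA from bulk tissue, fewer cells of a type and less RNA per cell cannot be told apart.

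Few genes responded to CCH by clearly unequal amounts in the 2 strains. The interaction passed the threshold for 19 of 26416 probes (0.0719%), 12 with a positive value (0.0454%), meaning a more positive diet difference in SAM/P-8, and 7 with a negative value (0.0265%). Among them 7 probes carried a gene symbol, AY761185, Stc1, Mob3a, Kmt5c, Bub1, Spem2 and Mxd3, and 12 did not. Sizes ran from 0.42 for Mob3a to 2.58 for AY761185 on the log2 scale, and adjusted p from 4.37e-05 to 0.0452. At an unadjusted p under the same threshold, 1346 probes (5.1%) were counted, near the share of 0.05 that chance alone would give. For comparison, the same fit called 233 probes (0.882%) for the diet in SAM/P-8 and 17 (0.0644%) in SAM/R-1. An interaction is measured less precisely than its parts, with a median SE of 0.12 against 0.083 for the diet difference in SAM/P-8. At that median SE an interaction had to reach 0.69, or 1.61-fold, to pass. With normexp, a model-based background correction of the raw spot signals with an offset of 50, the count was 0 (264 at an unadjusted p). It was 6 when 9 spots of very bright local background were left out first. Those 6 were AY761185, Bub1, the Mxd3 probe and 3 probes without a symbol. The 19 probes, chosen on these same arrays, kept their sign in both forms. Their sizes were a median 0.43 and 0.55 of those above (0.044 to 0.92 and 0.35 to 0.89). The part of the offset in this was not tested.

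Across the 12754 genes the 2 diet differences, which share no arrays, ran in one direction more often than not. They had the same sign in 69.0% of genes, with a Pearson correlation of 0.472 and a Spearman correlation of 0.489 across genes, which are not independent replicates. The median interaction was -0.01, and 36 genes exceeded 1 in size.

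**Figure D1:**
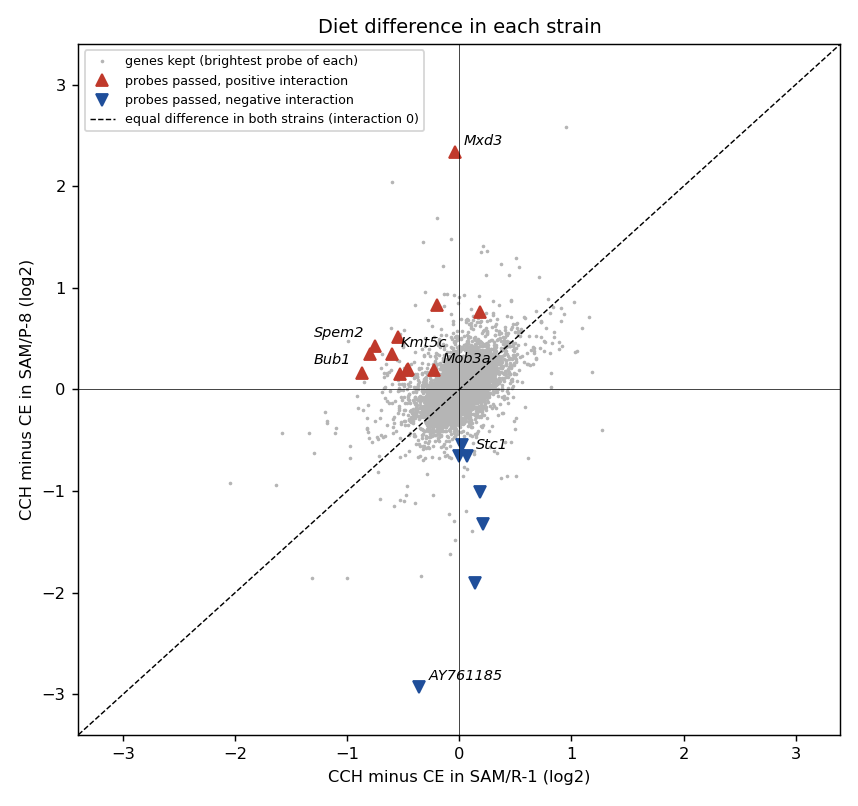
Diet difference (CCH minus CE, log2) in SAM/R-1 on the horizontal axis and in SAM/P-8 on the vertical axis. Grey points are the 12754 genes, each by its brightest probe, triangles are the 19 probes past the interaction threshold, and the dashed line marks an equal difference in both strains. The 7 negative probes lie below the line near a SAM/R-1 difference of 0, and most of the 12 positive ones lie to the left of 0 with a SAM/P-8 difference above 0.

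Most of the 19 probes had a simple shape, in which the 4 arrays of 1 group stood apart from the rest. The 19 were chosen by the interaction on the same arrays, and that choice favours such shapes. In 17 of the 19 at least 1 group lay wholly above or wholly below the 12 other arrays, which was so for 6.97% of all probes. SAM/P-8 + CE was such a group in 10 probes, 7 times above and 3 times below the rest, against 1.01% of all probes. SAM/R-1 + CE was above the rest in 7 probes (2.2% of all probes were apart in that group, in either direction), and SAM/P-8 + CCH in 3 (3.5%). SAM/R-1 + CCH was never the group apart (0.598%). The 2 diet differences had opposite signs in 17 of the 19. The diet difference itself passed in SAM/P-8 for 11 of them (0.882% of all probes) and in SAM/R-1 for 7 (0.0644%). It passed in both strains for 1 and in neither for 2. Both differences are parts of the interaction that chose these probes, so the counts are given only beside it.

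The promoters of AY761185 and Bub1 are shown first, since of the 6 called genes with a window in the table these 2 had one that overlapped no annotated gene. They were chosen after the values were seen, and they are the 250 bases before the annotated start, 5′ to 3′ on the strand of the gene, from RefSeq on GRCm38.p6, with CCAAT in capitals in either orientation.
AY761185 promoter (chr8:20944749-20944998, strand minus): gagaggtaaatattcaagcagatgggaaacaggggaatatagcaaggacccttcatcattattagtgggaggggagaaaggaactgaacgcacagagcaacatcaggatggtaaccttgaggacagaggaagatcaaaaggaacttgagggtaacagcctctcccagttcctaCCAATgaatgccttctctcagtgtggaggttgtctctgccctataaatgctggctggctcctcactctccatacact
Bub1 promoter (chr2:127831860-127832109, strand minus): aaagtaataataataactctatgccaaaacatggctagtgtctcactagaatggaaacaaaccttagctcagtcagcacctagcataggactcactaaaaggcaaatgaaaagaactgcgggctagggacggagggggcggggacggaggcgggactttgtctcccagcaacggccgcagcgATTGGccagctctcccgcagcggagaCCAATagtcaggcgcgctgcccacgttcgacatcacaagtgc
The AY761185 window held 1 CCAAT, from base 77 to base 73 before the start. The Bub1 window held 2, one on the opposite strand from base 68 to 64 and one on the gene's strand from base 42 to 38. The motif, searched on both strands, was found in 33.8% of 32851 promoter windows of that length. The E-box CACGTG (6.02% of windows), the cAMP response element TGACGTCA (1.55%) and the cell cycle homology region TTTGAA (16% of windows) were searched likewise, and these letters were in none of the 6 windows. CCAAT was in 4 of the 6, with none in the windows of Spem2 and Mxd3, which have a larger positive interaction than Bub1.

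In the first group of genes the signal was high in SAM/P-8 on CE and lower in the 3 other groups. AY761185, which neighbours defensin genes of antimicrobial peptides in the RefSeq order, gave the largest value. In SAM/P-8 + CE its 4 arrays read -1.92, -2.17, -1.97 and -1.98, and in SAM/P-8 + CCH they read -5.23, -5.04, -3.98 and -5.53. In SAM/R-1 + CE they read -4.36, -4.58, -4.37 and -4.65, and in SAM/R-1 + CCH -4.59, -4.81, -5.03 and -4.97. The 4 SAM/P-8 + CE arrays lay above all 12 others. The diet difference was -2.93 ± 0.23 in SAM/P-8, a 7.64-fold fall, and -0.36 in SAM/R-1, which did not pass (limma adjusted p = 0.604). The interaction was -2.58 ± 0.33 (limma adjusted p = 0.00614). Defensin genes have near-identical copies that could share signal on this probe, so the source of the signal among them is uncertain.

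Stc1 encodes stanniocalcin, a secreted glycoprotein that acts on calcium and phosphate transport. Its 4 arrays read -3.23, -3.07, -3.02 and -3.27 in SAM/P-8 + CE against -3.72, -3.85, -3.89 and -3.77 in SAM/P-8 + CCH. In SAM/R-1 they read -3.93, -3.75, -3.82 and -3.82 on CE and -3.87, -3.73, -3.54 and -3.91 on CCH. SAM/P-8 + CE again lay above the other 12 arrays, and the 2 SAM/R-1 groups overlapped. The gene fell 1.58-fold with CCH in SAM/P-8 (-0.66 ± 0.08, adjusted p = 0.00206), stood at 0.07 in SAM/R-1 (adjusted p = 0.793), and had an interaction of -0.73 ± 0.11 (limma adjusted p = 0.0239). Of its 2 other probes, both left out by the filter, the one well above background on 14 arrays gave 0.27 and the one on 0 arrays -0.49, so the probes disagree in direction. The call ended, with adjusted p up to 0.0787, in 8 of the 16 fits that each left out 1 array: SAM/P-8 + CCH replicates 2 and 3, SAM/P-8 + CE replicates 2 and 3, SAM/R-1 + CCH replicate 2, and SAM/R-1 + CE replicates 1, 3 and 4. It also ended with a trended robust prior (adjusted p = 0.0728), with normexp (-0.62) and with normexp without the 9 spots (-0.46, adjusted p = 0.155).

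The next gene stood out in SAM/P-8 on CCH. Mxd3 encodes a partner of Max that represses genes with E-boxes and is expressed in proliferating precursors. One of its 2 probes read -2.52, -2.79, -2.74 and -2.72 in SAM/P-8 + CCH and -5.03, -4.88, -5.47 and -4.74 in SAM/P-8 + CE. It read -4.89, -4.65, -4.90 and -4.85 in SAM/R-1 + CCH and -4.95, -4.69, -4.54 and -4.94 in SAM/R-1 + CE. All 4 SAM/P-8 + CCH arrays lay above the other 12, by a wide margin. This probe rose 5.06-fold in SAM/P-8 (2.34 ± 0.14), stood at -0.04 in SAM/R-1, and gave an interaction of 2.38 ± 0.19 (limma adjusted p = 4.37e-05). The other Mxd3 probe, also kept, gave 0.22 (limma adjusted p = 0.954), so the rise was seen by 1 of 2 probes. Mxd3 and Kmt5c, each with another probe that did not pass, fell outside the rule for named genes and were chosen after their values were seen.

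In the third group the signal was high in SAM/R-1 on CE and lower elsewhere. Bub1, a kinase of the mitotic spindle checkpoint, read -2.49, -2.58, -2.47 and -2.21 in SAM/R-1 + CE against -3.24, -3.44, -3.48 and -3.06 in SAM/R-1 + CCH. In SAM/P-8 it read -3.33, -3.14, -3.53 and -3.51 on CE and -3.42, -3.07, -3.17 and -3.21 on CCH. The SAM/R-1 + CE arrays lay above the other 12, and the 2 SAM/P-8 groups overlapped. Bub1 fell 1.83-fold with CCH in SAM/R-1 (-0.87 ± 0.11, adjusted p = 0.0155) and stood at 0.16 in SAM/P-8 (adjusted p = 0.45), with an interaction of 1.03 ± 0.16 (limma adjusted p = 0.0239). That call ended in 11 of the 16 fits without 1 array, which were all but those without SAM/P-8 + CCH replicate 1, SAM/P-8 + CE replicate 2, SAM/R-1 + CCH replicate 4 and SAM/R-1 + CE replicates 2 and 4, with adjusted p up to 0.0787. Its other probe was well above background on 0 arrays. The call also ended with median scaling (adjusted p = 0.061), array weights (adjusted p = 0.0672) and normexp (0.55), and held with normexp without the 9 spots (0.70, adjusted p = 0.0404).

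Spem2, a gene of spermatid maturation, read -4.34, -3.82, -3.98 and -4.23 in SAM/R-1 + CE and -4.86, -4.74, -4.78 and -4.99 in SAM/R-1 + CCH. In SAM/P-8 it read -5.32, -5.09, -5.42 and -5.05 on CE and -4.70, -4.79, -4.83 and -4.85 on CCH. The CE and CCH arrays did not overlap in either strain, and the differences had opposite signs. It fell 1.69-fold in SAM/R-1 (-0.75 ± 0.11, adjusted p = 0.0155), stood at 0.43 ± 0.11 in SAM/P-8 (adjusted p = 0.0678), and gave an interaction of 1.18 ± 0.15 (limma adjusted p = 0.00614). That call ended with normexp (0.31), and also with normexp without the 9 spots (0.50, adjusted p = 0.194). Its probe was at the 2.87th percentile of brightness, the dimmest of the 19.

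Mob3a, a member of the MOB family of kinase adaptors, had small diet differences of opposite sign. It read -3.56, -3.64, -3.64 and -3.53 in SAM/P-8 + CE and -3.41, -3.39, -3.41 and -3.39 in SAM/P-8 + CCH. In SAM/R-1 it read -3.39, -3.31, -3.34 and -3.32 on CE and -3.55, -3.50, -3.66 and -3.57 on CCH. The diets did not overlap in either strain, with CCH higher in SAM/P-8 and lower in SAM/R-1. Neither diet difference passed by itself, at 0.19 ± 0.04 in SAM/P-8 (adjusted p = 0.0563) and -0.23 ± 0.04 in SAM/R-1 (adjusted p = 0.0906), while their difference of 0.42 ± 0.06 did (limma adjusted p = 0.0154). Such a pattern, without overlap in both strains and in opposite directions, was found in 4 of the 19 probes and in 0.0341% of all probes. The choice of the 19 by the interaction on the same arrays favours this pattern. The Mob3a call ended without SAM/P-8 + CCH replicate 2 or without SAM/P-8 + CE replicate 3, with a largest adjusted p of 0.0554, and it ended under median scaling (0.37, adjusted p = 0.24), quantile normalization (0.36, adjusted p = 0.25), a trended robust prior (adjusted p = 0.301), normexp (0.15) and normexp without the 9 spots (0.31, adjusted p = 0.704).

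Kmt5c, a histone methyltransferase of heterochromatin, had 2 probes that differed. The one past the threshold read -3.67, -3.63, -3.91 and -3.99 in SAM/R-1 + CE and -4.27, -4.52, -4.61 and -4.21 in SAM/R-1 + CCH. In SAM/P-8 it read -4.55, -4.44, -4.34 and -4.63 on CE and -4.41, -3.98, -4.05 and -4.12 on CCH. The SAM/R-1 diets did not overlap and the SAM/P-8 diets did. The interaction was 0.95 ± 0.16 (limma adjusted p = 0.0452), but the other kept probe of the gene gave 0.01 (limma adjusted p = 0.996). The call held in 3 of the 16 fits without 1 array, those without SAM/R-1 + CCH replicate 4, SAM/P-8 + CCH replicate 1 or SAM/R-1 + CE replicate 4, and the largest adjusted p was 0.142. It ended under 7 of 10 other settings.

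**Figure D2:**
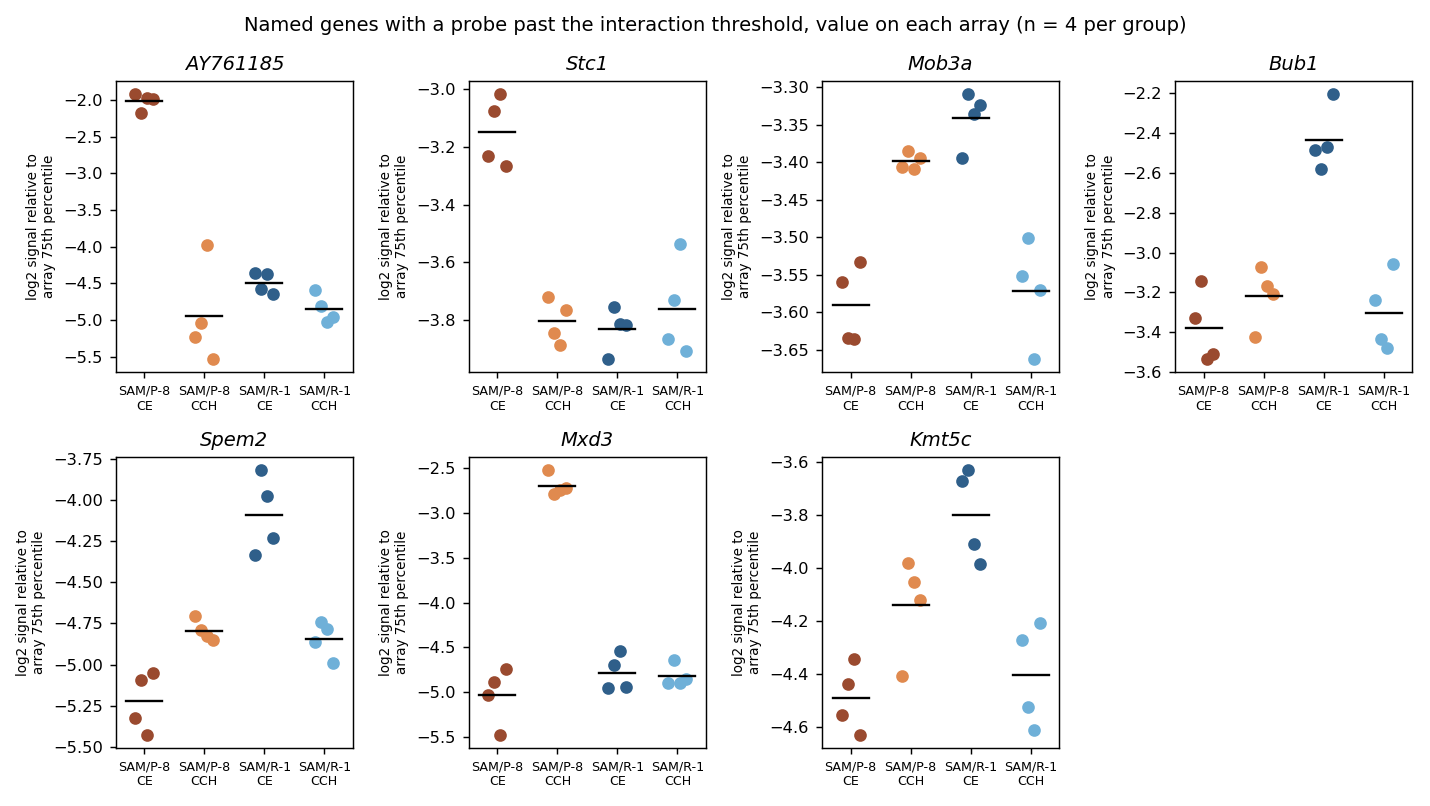
Log2 signal relative to the 75th percentile of the array for the probe past the threshold of each of 7 genes. Points are arrays, 4 per group in replicate order, bars are group means, and vertical scales differ between panels. SAM/P-8 + CE stands above the rest for AY761185 and Stc1, SAM/P-8 + CCH for Mxd3, and SAM/R-1 + CE for Bub1 and Spem2, while Mob3a crosses.

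The 12 probes without a symbol showed the same shapes. Of 5 with a negative interaction, from -2.05 to -0.57, the diet difference passed in SAM/P-8 for 5 (0.882% of all probes) and in SAM/R-1 for 0 (0.0644%). A_52_P1197192 read -2.13, -1.67, -1.60 and -1.93 in SAM/P-8 + CE, above the 12 other arrays, whose group means were -3.74 in SAM/P-8 + CCH, -3.92 in SAM/R-1 + CE and -3.78 in SAM/R-1 + CCH. Its interaction was -2.05 ± 0.16 (limma adjusted p = 4.37e-05), and that of A_51_P309661 was -1.53 ± 0.22 (limma adjusted p = 0.0154). Of 7 with a positive interaction, from 0.58 to 1.15, the diet difference passed in SAM/P-8 for 3 and in SAM/R-1 for 5. Such counts rest on parts of the interaction that chose the probes. A_51_P434124 had the largest of the 7 positive values (1.15 ± 0.16, limma adjusted p = 0.0102). It read -3.54, -3.81, -3.45 and -3.92 in SAM/R-1 + CE. Its group means were -4.48 in SAM/R-1 + CCH, -4.87 in SAM/P-8 + CE and -4.52 in SAM/P-8 + CCH. For A_51_P483171 the diet passed in both strains, up by 0.52 ± 0.09 in SAM/P-8 (adjusted p = 0.0233) and down in SAM/R-1 (-0.55 ± 0.09, adjusted p = 0.043).

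Read the other way, these genes separated the strains mostly on the CE diet. The strain difference, SAM/P-8 minus SAM/R-1, passed on CE for 17 of the 19 probes (13.3% of all probes passed) and on CCH for 6 (13.8%), and it was larger in size on CE for 16. For AY761185 the strains differed by 2.48 ± 0.23 on CE and by -0.10 ± 0.23 on CCH, and for Stc1 by 0.68 ± 0.08 and -0.04 ± 0.08. For Spem2 the strains differed by -1.13 ± 0.11 on CE and by 0.05 ± 0.11 on CCH. Mxd3 was one of 3 exceptions, with -0.25 ± 0.14 on CE and 2.13 ± 0.14 on CCH. These comparisons share their arrays with the interaction, and each is given only beside it.

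The genes next in order did not pass. With a positive value these were Kcp, Ctrb1, Olfr1350, Oscar, Sit1, Olfr175, Col4a6, Hif3a and Ssc5d, from 0.49 to 0.91. SAM/R-1 + CE lay above all other arrays in 8 of these 9, against 2.2% of all probes apart in that group in either direction, and the choice by smallest p favours this shape. Kcp, a secreted modulator of BMP signalling, came nearest with 0.50 ± 0.09 (limma adjusted p = 0.0553). Its arrays read -1.77, -1.72, -1.70 and -1.82 in SAM/R-1 + CE and -2.03, -2.23, -2.25 and -2.02 in SAM/R-1 + CCH, while SAM/P-8 stood at -2.24 ± 0.05 (SD) on CE and -2.11 ± 0.07 (SD) on CCH. Ctrb1, a chymotrypsinogen, stood at 0.90 ± 0.17 (limma adjusted p = 0.0988), and Sit1, an adaptor of T cell signalling, at 0.85 ± 0.18 (limma adjusted p = 0.256). Hif3a, a hypoxia-inducible factor subunit, stood at 0.49 ± 0.12 (limma adjusted p = 0.486). Col4a6, a basement membrane collagen, had another kept probe at -0.07. Leaving out 1 array brought Kcp (SAM/R-1 + CCH replicate 4, adjusted p = 0.0372), Ctrb1 (SAM/R-1 + CE replicate 4, 0.0486) and Oscar (SAM/P-8 + CCH replicate 1, 0.0409) past the threshold.

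With a negative value the next genes were Adamts14, Lrp2, Olfr1263, AU021092, Cldn14, Wnt7a, Pik3r3, Mepe, Cramp1l and Zbtb40, from -1.49 to -0.28. Adamts14, a protease that trims procollagen, read -3.72, -3.73, -3.24 and -3.26 in SAM/P-8 + CE and -4.43, -4.84, -4.69 and -4.90 in SAM/P-8 + CCH. SAM/R-1 read -4.72, -4.73, -4.15 and -4.37 on CE and -4.54, -4.59, -4.73 and -4.49 on CCH, so SAM/P-8 + CE was the group above the rest. Its fall in SAM/P-8 passed (-1.23 ± 0.15, adjusted p = 0.00206), and its interaction of -1.13 ± 0.21 did not (limma adjusted p = 0.0988; 0.0487 without SAM/R-1 + CE replicate 3). Cldn14, a tight junction protein, stood at -0.98 and passed without SAM/P-8 + CCH replicate 4 (adjusted p = 0.0327). Lrp2, the endocytic receptor megalin, stood at -0.65 ± 0.13 (limma adjusted p = 0.204), with a SAM/P-8 difference of -0.53 that passed (adjusted p = 0.0233). Its other probes, left out by the filter, disagreed in direction. They gave -0.32 (well above background on 8 arrays), 0.41 (on 3) and 0.21 (on 1). Olfr1263, an olfactory receptor gene, stood at -1.49 ± 0.34 (limma adjusted p = 0.381), and 1 of its SAM/R-1 + CE arrays read -3.13 where the 3 others lay between -4.55 and -4.42; without that array, replicate 2, the adjusted p was 0.000221. Wnt7a, a secreted Wnt ligand, stood at -0.40 ± 0.10 (limma adjusted p = 0.5), and Mepe, a phosphate-regulating matrix protein, at -0.56 ± 0.15 (limma adjusted p = 0.574).

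Gene groups were read through 32 lists, which held 739 entries with a kept probe and were described by counts and medians beside those of all genes. The interaction passed for 1 of the 739 entries, Stc1, against 0.0392% of all 12754 genes, and at an unadjusted p for 34 entries against 4.38% of all genes. The median interaction of 27 lists lay within 0.2 of 0. Over all genes it was -0.01, with 5% of genes below -0.22 and 5% above 0.25, and 45% of genes had a positive value.

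Clock, immediate early and heat shock genes had small median interactions, and most of their members were higher on CCH in both strains. The diet difference passed for 1, 0 and 1 of their members in SAM/P-8 (0.808% of all genes) and for 0 in SAM/R-1 (0.0627%). Of 24 circadian clock genes, which time daily rhythms, 19 were higher on CCH in SAM/P-8 (41.6% of all genes were) and 22 in SAM/R-1 (44%), with medians of 0.15 and 0.19 and a median interaction of -0.03. Their members with the smallest interaction p were the kinase Csnk1d (-0.17 ± 0.08) and the nuclear receptor Rorb (0.38 ± 0.19), with limma adjusted p of 0.951 and 0.954. Of 32 immediate early genes, which neurons induce on activity, 25 were higher on CCH in SAM/P-8 and 29 in SAM/R-1. Their medians were 0.26 in SAM/P-8 and 0.35 in SAM/R-1, and the median interaction was -0.06, with Klf6 at -0.19 ± 0.12 and Nr4a2 at -0.35 ± 0.31. Heat shock and chaperone genes had medians of 0.10 and 0.11 and an interaction of -0.04. None of the members of these 3 lists passed for the interaction (limma smallest adjusted p = 0.951 in the clock list, 0.954 in the 2 others, with 1 of 24 clock genes and 0 genes of the others at an unadjusted p).

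Large sets of housekeeping genes leaned to negative values by small amounts. Of 76 cytoplasmic ribosomal protein genes 72 had a negative interaction, where 55% of all genes did, with a median of -0.10 and 0 past the threshold by limma (9 at an unadjusted p). Rpl19 stood at -0.24 ± 0.07 (limma adjusted p = 0.761) and Rps10 at -0.19 ± 0.07 (limma adjusted p = 0.885). Among 65 respiratory chain and ATP synthase genes 56 were negative, with a median of -0.06 and 4 at an unadjusted p. They included Ndufa2, a subunit of complex I, at -0.18 ± 0.06 (limma adjusted p = 0.831). For 31 proteasome genes 27 were negative with a median of -0.06. The sign also varied with brightness. Among the 1275 brightest genes the median was -0.06 and 77.9% were negative, and among the 1275 dimmest it was 0.06 and 39.5% were negative. With quantile normalization the medians of the ribosomal, respiratory and proteasome lists were -0.04, -0.01 and -0.01.

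**Figure D3:**
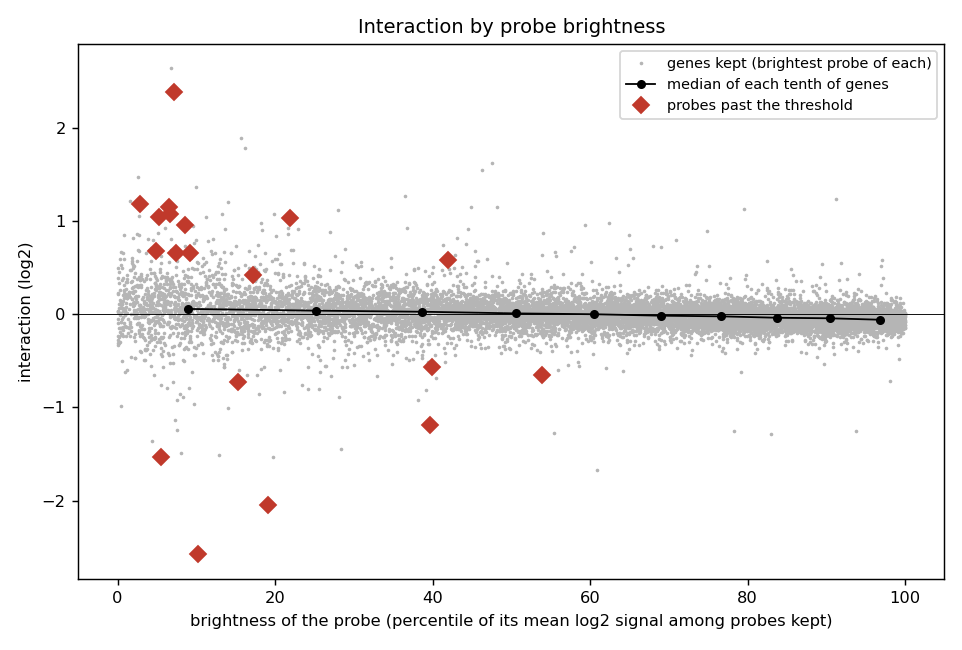
Interaction (log2) of each of 12754 genes against the brightness percentile of its probe. The line joins the medians of 10 equal bins of the genes and falls from 0.06 to -0.06, and diamonds are the 19 probes past the threshold. Of these, 15 lie in the lowest 25% of brightness and 1 above the median.

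The probes past the threshold were mostly dim ones. Of the 19, 15 lay in the lowest 25% of brightness among kept probes, 10 in the lowest 10%, and 1 above the 50th percentile, at 53.9. The part of residual background in their values was not tested beyond the alternative background corrections.

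Of 25 endothelial and pericyte markers 22 had a negative interaction, where 55% of all genes did, with a median of -0.16 (-0.058 without SAM/P-8 + CE replicate 1, and down to -0.22 without others), diet medians of 0.02 in SAM/P-8 and 0.15 in SAM/R-1, 0 past the threshold by limma and 3 at an unadjusted p. Flt1, a VEGF receptor, stood at -0.46 ± 0.17 (limma adjusted p = 0.883) and Cldn5, a tight junction protein, at -0.42 ± 0.19 (limma adjusted p = 0.951). Microglial markers had a median of 0.08, oligodendrocyte markers 0.10 and astrocyte markers -0.07. The oligodendrocyte median was -0.04 without SAM/P-8 + CCH replicate 4.

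The calcium and phosphate list, which bears on a calcium compound in the diet, held 24 kept genes. Its median interaction was -0.06, and 14 members were negative. Stc1 was the member that passed, and the calcium pump Atp2a2 came next at -0.15 ± 0.08 (limma adjusted p = 0.954). Antioxidant genes under NRF2, a list named for the response to oxidants, had a median of 0.01 over 29 genes with 0 past the threshold by limma and 0 at an unadjusted p, and the member with the smallest p was Prdx2 (-0.09 ± 0.06). Among 20 sirtuin and ageing genes the median was 0.005, with Terf1, a telomere-binding protein, at 0.28 ± 0.10 (limma adjusted p = 0.854).

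**Figure D4:**
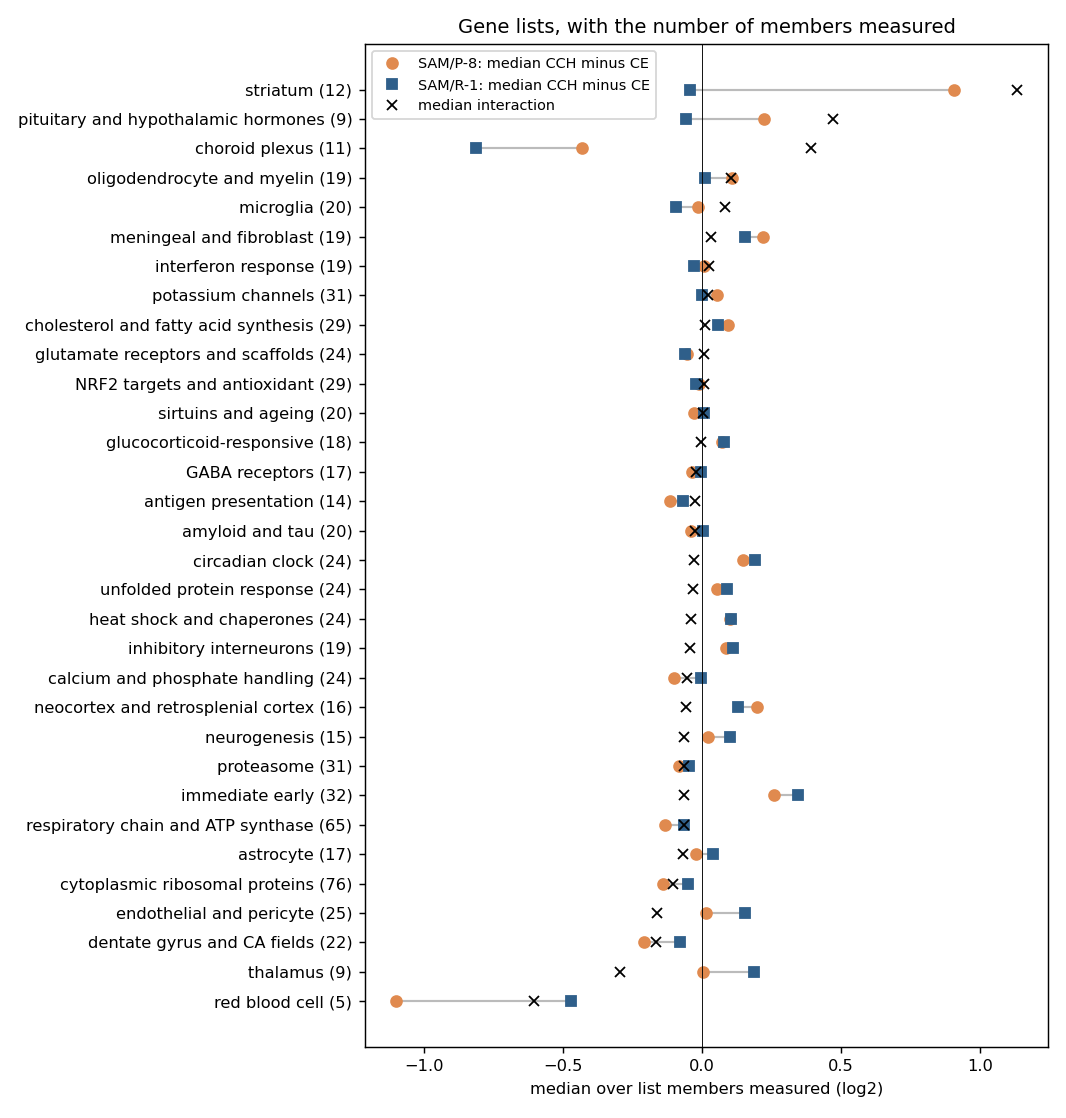
Median diet difference (CCH minus CE, log2) in SAM/P-8 (circles) and SAM/R-1 (squares) and median interaction (crosses) for 32 gene lists, with the number of members measured in brackets. Clock, immediate early and heat shock genes lie to the right of 0 in both strains, and the largest gaps between strains belong to markers of striatum, red blood cells, choroid plexus and hormones.

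The 5 lists with a median beyond 0.2 in size were those of striatum, thalamus, choroid plexus, hormones and red blood cells. Striatal markers had a median interaction of 1.14, with 12 of 12 members positive. The list level, the mean over members after centring each gene, was -0.06, -0.30, -0.15 and 3.53 on the 4 SAM/P-8 + CCH arrays and lay between -0.68 and 0.24 on the 12 others. The high value was that of replicate 4, where Drd1, a dopamine receptor, read 1.54 against -3.11 to -2.34 in the rest of its group, and Ppp1r1b, its target DARPP-32, 1.52 against -2.37 to -1.99. Without that array the striatal median was 0.05. The interaction did not pass for any striatal member (Ido1 2.64 ± 1.29 and Ppp1r1b 1.27 ± 0.85, limma adjusted p = 0.954 for each, with 0 of 12 at an unadjusted p).

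Hormone genes of pituitary and hypothalamus read high on the same array. Their level was -0.14, -0.11, -0.18 and 1.45 in SAM/P-8 + CCH, and the median interaction of 0.47, with 9 of 9 positive, was 0.17 without replicate 4. Ghrh, growth hormone-releasing hormone, stood at 0.66 ± 0.20 (limma adjusted p = 0.761) and Pomc, the precursor of melanocortins, at 0.12 ± 0.08. Markers of the dentate gyrus and CA fields went the other way on that array, at -0.29 against -0.01, 0.10 and 0.09 in the rest of its group. Their median interaction was -0.17, with 1 of 22 positive, and -0.04 without that array. Zbtb20, a transcription factor of hippocampal pyramidal cells, stood at -0.25 ± 0.12 (limma adjusted p = 0.954). The 19 calls became 18 without this array, 17 of them among the 19, so 2 of the 19 were lost with it.

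Choroid plexus markers varied within every group. Their level was 0.94, 0.94, -2.62 and 0.77 in SAM/P-8 + CCH, 0.96, 1.64, 1.14 and -1.81 in SAM/P-8 + CE, 0.78, -2.47, -1.999 and 0.74 in SAM/R-1 + CCH, and 0.80, 1.24, 0.17 and -1.22 in SAM/R-1 + CE. The median interaction of 0.39 ran from -0.32 to 1.26 when 1 array was left out, and Folr1, the folate receptor, stood at 0.98 ± 1.65. Red blood cell genes were high on SAM/P-8 + CE replicates 1 and 2, at 1.46 and 2.08, and between -0.85 and 0.23 on the other 14 arrays. Their median interaction was -0.60 over 5 genes and ran from -1.02 to -0.08 without 1 array. Thalamic markers had a median of -0.29 over 9 genes, from -0.36 to -0.15 without 1 array. Interferon genes, whose level was 0.91 on SAM/P-8 + CCH replicate 4 and 0.17 to 0.24 on the rest of its group, had a median interaction of 0.03. The part of this tissue and blood signal in the interactions was not tested.

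**Figure D5:**
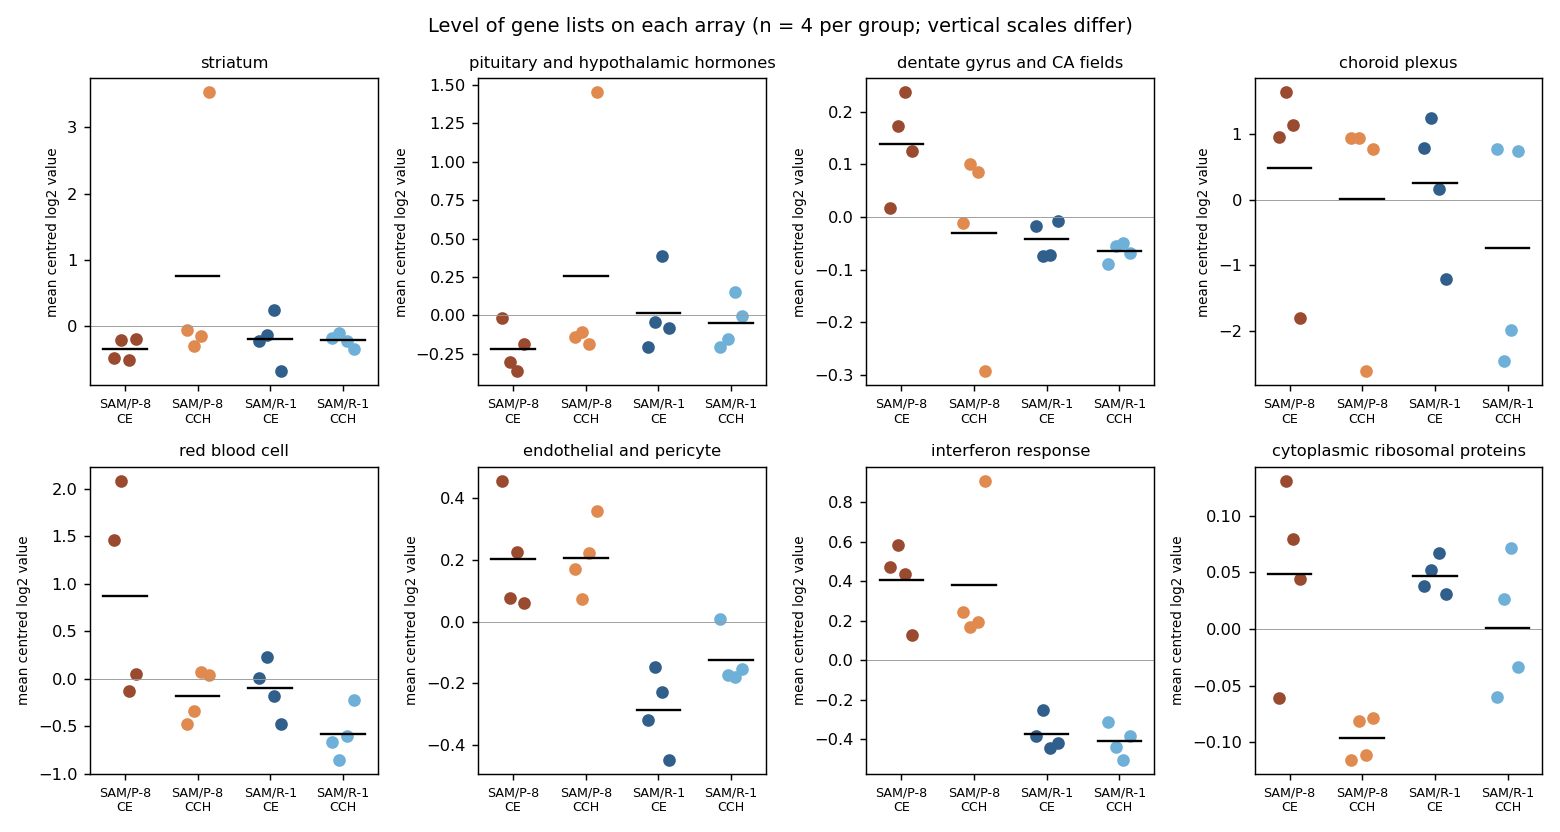
Level of 8 gene lists on each array, as the mean over members of log2 values centred per gene. Points are arrays in replicate order, 4 per group, bars are group means, and vertical scales differ between panels. SAM/P-8 + CCH replicate 4 stands high for striatum (3.53) and hormones (1.45) and low for the dentate gyrus and CA fields (-0.29), and choroid plexus genes span several log2 units within groups.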

How the data were processed

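Hippocampal RNA was hybridised to 16 one-colour Agilent arrays, 4 per group. Per the file headers, the authors extracted spots with Agilent Feature Extraction 9.5.3.1, which subtracted background and removed spatial trends, and the deposited intensity values carry no scaling between arrays. Flags of each spot were used as deposited. The authors' deposited value table holds log2 values centred per probe; its scaling is not stated, and it served as an alternative.

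Control spots and non-uniform spots were left out, spots of a probe were averaged, and log2 intensity minus the 75th percentile of the array was fitted with limma 3.58.1 in R 4.3.3, with a mean per group. Of 26418 probes well above background on all 16 arrays, 2 were left out for missing values. The 26416 kept (14758 of all probes left out) included 18602 with 1 gene symbol and 7814 with none. Of their values on single arrays, 50 were missing. A gene was read by its brightest kept probe. Named genes were up to 12 per direction past the threshold by size, then by smallest p, and in lists the members past the threshold or the 2 of smallest p. The fit was tested on simulated data with independent noise for each probe and array. Such noise is not shared between probes, so the test does not bear on shared effects of slide or tissue. Members, lists and tests were chosen with earlier results of these data known. Alternatives were background correction, scaling, filters, priors, weights, a block and leaving out each array.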

Additional observations from a re-analysis of the deposited data

Results flagged for a closer look

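The diet difference differed between the strains for AY761185 (-2.58), Stc1 (-0.73), Mob3a (0.42), Kmt5c (0.95), Bub1 (1.03), Spem2 (1.18) and Mxd3 (2.38), on the log2 scale, and for 12 probes without a symbol, by limma's interaction test.

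Single arrays stood far from the 3 others of their group in 11 of 232 groups of values examined, by Dixon's ratio at its 95% limit, which chance exceeds in about 5% of groups. SAM/P-8 + CCH replicate 4 stood high for striatal markers (3.53), hormone genes (1.45) and interferon genes (0.91). SAM/P-8 + CCH replicate 3 stood low for choroid plexus markers (-2.62). In SAM/R-1 + CCH, replicate 1 stood high for endothelial markers (0.00898), replicate 3 for heat shock genes (0.20) and replicate 2 for proteasome genes (0.0189). SAM/R-1 + CE replicate 4 stood apart for calcium and phosphate genes (0.0408). Of single genes, Kcp on SAM/P-8 + CCH replicate 2 (-2.001), Oscar on SAM/P-8 + CCH replicate 1 (-4.45) and Olfr1263 on SAM/R-1 + CE replicate 2 (-3.13) stood apart.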

How the results depend on the processing

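The interaction count of 19 became 0 with normexp, 6 with normexp without 9 spots of bright local background (an alternative chosen after seeing the data), 12 with a trended robust prior, 5 with 1 probe per gene, 49 with probes well above background in at least 1 group and 55 with no filter. It ran from 10 to 21 without 1 array and was under 13 without SAM/P-8 + CCH replicate 2 (12), SAM/P-8 + CE replicate 3 (10) and SAM/R-1 + CE replicate 1 (11). It was 13 with median scaling (6 positive), 15 with quantile normalization (7 positive), 17 with array weights and 19 with the authors' deposited values. The 233 calls in SAM/P-8 became 1 with normexp and 203 with normexp without the 9 spots, 136 of these among the 233. They became 87 with median scaling, 127 with quantile normalization, 153 with no filter, 396 with the trended prior and 356 with array weights. Without 1 array they ran from 33 to 443. The 17 calls in SAM/R-1 became 0 and 1 with the 2 forms of normexp, 3 with quantile normalization, 32 and 49 with the wider filters, 6 with the trended prior, 61 with array weights and 8 with 1 probe per gene, and ran from 0 to 22 without 1 array. Ssc5d reversed under normexp (-0.0445). The causes were not tested, except that 4 of the 9 spots on each of 2 arrays raised their low signals under normexp. The replicate number equalled the position of the array on its slide for 16 of the 16 arrays. With this number as a block the counts were 11, 113 and 3. Under it the calls of Stc1 and Mob3a (adjusted p = 0.0609 each), Bub1 (0.0881) and Kmt5c (0.211) ended. Same-numbered arrays correlated at -0.31 to 0.35 in 24 pairs, 7 of them over 0.1, and 3 of 16 arrays correlated best with their own number. The numbers were thus not treated as pairing, and the 19 calls are not adjusted for slide position. Dim probes and 4 arrays per group limit the precision.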
